A study of Mus musculus with 6 samples.

Results

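Ketone body use and monocarboxylate transport in mouse muscle were followed here through 6 genes, Oxct1, Bdh1, Bdh2, Acat1, Slc16a1 and Bsg, of the 18193 genes with a probe set of a single symbol on the array. Each transcript is read on this array by sets of short oligonucleotide probes, and every probe set whose platform symbol was one of these names was taken, 13 in all. There were 4 for Oxct1, 3 for Acat1, 2 each for Bdh1 and Slc16a1, and 1 each for Bdh2 and Bsg. The genes were chosen by the Oxct1 intensities themselves, already known to be lower in the knockout (KO) arrays at several probe sets, so the KO and wild-type (WT) values of the members are given as a description, with no test.

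Total RNA from muscle of 3 mice labelled SIRT6KO and 3 labelled wild type, all of the 129SvJ background, was hybridized to 1 Affymetrix Mouse Genome 430 2.0 array per mouse. SIRT6 is a chromatin-bound sirtuin that removes acyl groups from histones using NAD. The labels name neither the muscle sampled nor the age or sex of the mice, nor how the deletion was made. The comparison asks how muscle transcript levels differ between the genotypes.

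Ketone bodies are made mainly in the liver during fasting and are burned in muscle, heart, brain and brown fat. Circulating ketone bodies and lactate enter cells through proton-linked monocarboxylate transporters, which need a partner glycoprotein to reach the cell surface. Inside the mitochondrion 3-hydroxybutyrate is oxidized to acetoacetate, acetoacetate receives coenzyme A from succinyl-CoA, and the acetoacetyl-CoA is split into acetyl-CoA for the citric acid cycle. In this order the members are Slc16a1, which encodes the transporter MCT1, Bsg, which encodes its partner basigin, Bdh1, the mitochondrial 3-hydroxybutyrate dehydrogenase, Oxct1, the transferase SCOT that commits ketone bodies to use, and Acat1, the thiolase that splits acetoacetyl-CoA and also serves isoleucine breakdown. Bdh2 encodes a cytosolic dehydrogenase of the same enzyme superfamily as Bdh1.

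The members with all KO arrays below all WT arrays belonged to Oxct1 and Slc16a1, and the bases upstream of their annotated starts are shown for that reason. Each stretch is the 250 bases before the gene start in the RefSeq promoter table of build GRCm38.p6, plus strand, at chr15:4026178-4026427 for Oxct1 and chr3:104638414-104638663 for Slc16a1. Capitals mark the motif matches named after the sequences.
Oxct1: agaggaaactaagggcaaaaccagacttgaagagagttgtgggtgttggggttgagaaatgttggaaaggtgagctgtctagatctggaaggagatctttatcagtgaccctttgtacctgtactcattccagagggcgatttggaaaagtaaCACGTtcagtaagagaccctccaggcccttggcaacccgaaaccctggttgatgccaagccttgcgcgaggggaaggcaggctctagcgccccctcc
Slc16a1: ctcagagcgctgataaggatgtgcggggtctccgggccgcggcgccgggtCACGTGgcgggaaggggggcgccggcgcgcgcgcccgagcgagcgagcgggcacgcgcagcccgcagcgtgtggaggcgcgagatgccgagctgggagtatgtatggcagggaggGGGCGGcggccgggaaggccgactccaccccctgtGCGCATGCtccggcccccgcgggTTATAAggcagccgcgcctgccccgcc
The letters searched on both strands were CACGTG for an E-box and ACGTG for the core of the hypoxia response element, which every E-box of this form contains. The others were GCGCATGC for an NRF1 core, GGGCGG for the box bound by Sp factors, CCAAT for an NF-Y site, TATAA for the core promoter element of that name, AAGGTCA for a half-site of the oestrogen-related receptors, and TGACGTCA for the cyclic AMP response element. In the Oxct1 window 1 match was found, the hypoxia core on the minus strand at position -97 from the start. The Slc16a1 window held the E-box at -200, the Sp box at -85, the NRF1 core at -50 and the core promoter element at -26, the last overlapping a minus-strand match at -27. Over the 32851 promoter windows of the table, the hypoxia core was in 16.57%, the E-box in 6.021%, the Sp box in 32.74%, the NRF1 core in 2.256% and the core promoter element in 22.78%. The NF-Y letters were in 33.85%, the receptor half-site in 4.079% and the cyclic AMP element in 1.546%, and none of these 3 was in the Oxct1 or Slc16a1 window. The GC content was 52% before Oxct1 and 76.4% before Slc16a1, against a median of 52.4% over the table. A match describes letters only and shows no binding. The table also held Bdh1 and Bdh2 but not Acat1 or Bsg.

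Sirt6 itself did not separate the groups at its probe set 1429631_at, which read 22.6, 18.3 and 13.7 in KO arrays and 23.2, 15.1 and 21.3 in WT arrays (limma adjusted p = 0.947). Whether that probe set lies in the deleted part is not known, so no check of the labels follows from it. Xist read 715.4, 1165.7 and 1138.9 in KO arrays and 31.3, 24.5 and 29.6 in WT arrays at probe set 1436936_s_at, and Y-linked Eif2s3y read 1.1, 4.1 and 2.7 in KO arrays and 77.1, 53.9 and 44.5 in WT arrays. These transcripts part the mice exactly as the labels do, so genotype and sex cannot be told apart in any value below. Array medians lay between 11 and 13.5 in KO arrays and between 10.8 and 15 in WT arrays. WT replicate 1 stood apart, with hybridization controls (transcripts added in fixed amounts) at 1.85 times those of WT replicate 2, while the 3 KO arrays were at 1.01 to 1.04 times and WT replicate 3 at 0.985 times. Each member above 16 whose log2 difference changed sign or moved by over 1.5 times without that array, or with arrays scaled to those controls, is also given that way. The ratio of 3' to 5' signal of the Gapdh control, a sign of RNA quality, was 0.811 to 0.846 in KO arrays and 0.827 to 0.835 in WT arrays. The defining genes of skeletal muscle were bright: creatine kinase Ckm read 9226.7 to 10352.1 in KO arrays and 9280.3 to 16058.6 in WT arrays, close to the brightest signals on the array.

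Oxct1 was lower in every KO array than in every WT array at all 4 of its probe sets. At the brightest, 1449059_a_at, the intensity was 697.6, 430.1 and 372.7 in KO arrays and 2508.7, 1633.2 and 1501.5 in WT arrays. The lowest WT array stood 2.15 times above the highest KO array. The means were 500.1 ± 173 in KO and 1881 ± 547 in WT (SD, n = 3 each), and the difference on the log2(intensity + 16) scale was -1.89. KO replicates 1, 2 and 3 were at 37.1%, 22.9% and 19.8% of the WT mean. All of them lay well above 16, the offset added before the logarithm.

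The other Oxct1 probe sets gave the same arrangement at lower intensity. Probe set 1436750_a_at read 182.5, 128.1 and 99.1 in KO arrays and 728.7, 394.8 and 363.6 in WT arrays, a log2 difference of -1.71. Probe set 1428140_at read 149.7, 65.4 and 95.9 in KO arrays and 588.3, 376.9 and 307.1 in WT arrays, a log2 difference of -1.89. In both, KO replicate 1 was the highest KO array and WT replicate 1 the highest WT array, as at the brightest probe set. Probe set 1455804_x_at was the dimmest, at 47.5, 35.7 and 40.6 in KO arrays and 155.7, 70.4 and 62.7 in WT arrays. Its log2 difference was -0.88, and the lowest WT array was 1.32 times the highest KO array, the narrowest gap of the 4. The suffix _x_at marks a probe set with probes that may also match other sequences, and this one was designed from the same sequence record as 1436750_a_at, so these 2 are not separate views of the gene. Among the log2 differences of all 45037 probe sets, counted from the most negative, the 3 brighter Oxct1 probe sets held places 22, 24 and 32, and 1455804_x_at place 383.

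**Figure D1:**
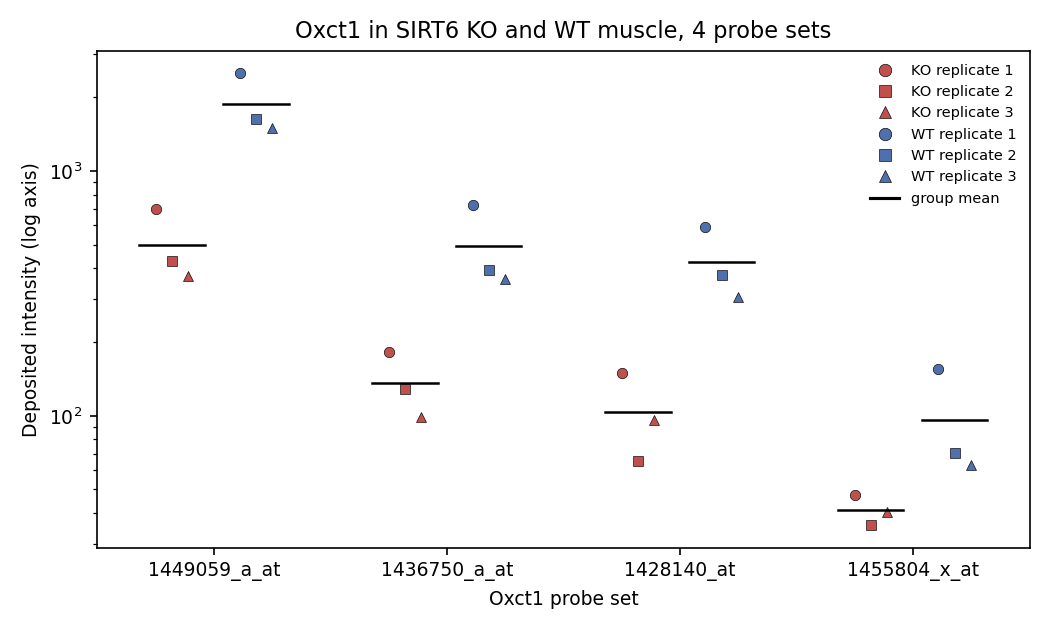
Deposited intensity (log axis) at the 4 Oxct1 probe sets, with 1 point per array, KO left and WT right, and the group mean as a black line. At each probe set the 3 KO points lie below the 3 WT points; at 1449059_a_at they run between 372.7 and 697.6 in KO and between 1501.5 and 2508.7 in WT.

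The Oxct1 difference did not rest on a single array. At 1449059_a_at the log2 difference lay between -2.15 and -1.67 with each array left out in turn, -1.67 being the value without the bright WT replicate 1. Scaled to the hybridization controls, a choice made after seeing the data, the 3 KO arrays read 669, 416 and 369 and the 3 WT arrays 1354, 1633 and 1525, so WT replicate 1 became the lowest WT array and still stood above every KO array. The log2 difference was then -1.65. At 1455804_x_at the log2 difference was -0.53 without WT replicate 1, more than 1.5 times smaller than with it.

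Of the brown fat markers, Ucp1 and Cidea were lower in KO arrays, as Oxct1 was. Brown adipocytes burn ketone bodies too, and Ucp1, the uncoupling protein that defines them, read 129.9, 5.9 and 2.3 in KO arrays and 877.2, 570.3 and 586.1 in WT arrays. Cidea, a lipid droplet protein abundant in brown fat, read 164, 135.8 and 191.2 in KO arrays and 824, 429.9 and 442 in WT arrays. For both genes all KO arrays were below all WT arrays, and Pearson's r with the mean Oxct1 profile over the 6 arrays was 0.967 for Ucp1 and 0.955 for Cidea, values that the separation of the groups by itself makes high. Adipoq, the adiponectin gene of adipocytes in general, overlapped, at 131, 277.8 and 339.5 in KO arrays and 606.9, 295.6 and 293.9 in WT arrays. Of the 8 adipocyte markers measured, of 10 listed, Ucp1, Cidea, Retn and Lep had all KO arrays lower, Plin4 had all KO arrays higher, and 3 overlapped, where 7.29% of all 45037 probe sets had all KO arrays lower and 5.02% all KO arrays higher. Retn, which encodes resistin, read 20.8, 35.9 and 35 in KO arrays and 94.7, 49.6 and 64.5 in WT arrays, whereas Plin4, a lipid droplet coat protein found in muscle fibres too, read 687.8, 1520.4 and 2357.1 in KO arrays and 496.7, 582.8 and 344.3 in WT arrays. These markers thus went both ways. Their summed intensity ran between 3285.6 and 6011 in KO arrays and between 4364 and 8049.6 in WT arrays. KO replicate 1, the KO array with the most Ucp1, was also the KO array with the most Oxct1 at each of the 4 probe sets. Cidea did not follow this order: it was highest in KO replicate 3, the KO array with the least Oxct1 at 1449059_a_at and 1436750_a_at. The part of fat tissue in the Oxct1 difference was not tested, and in bulk tissue fewer cells of a type cannot be told apart from less RNA per cell.

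**Figure D2:**
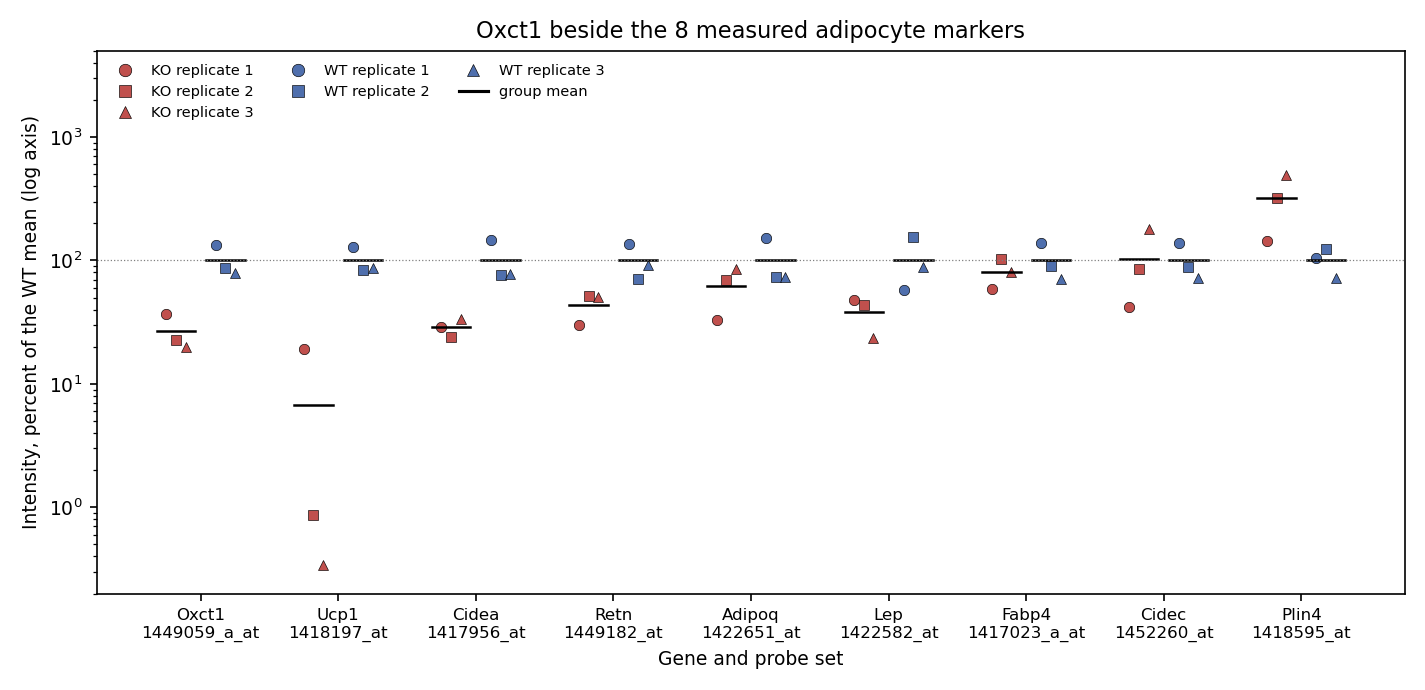
Intensity as a percentage of the WT mean (log axis) for Oxct1 and the 8 measured adipocyte markers, with 1 point per array, KO left and WT right, and the group mean as a black line. Oxct1, Ucp1, Cidea, Retn and Lep have all KO points below all WT points, Adipoq, Fabp4 and Cidec overlap, and Plin4 has all KO points above; the Oxct1 points of KO replicates 1, 2 and 3 lie at 37.1%, 22.9% and 19.8%.

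Slc16a1 was the other gene with no overlap, at a smaller difference. Its probe set 1415802_at read 73.4, 104.4 and 91.3 in KO arrays and 220.5, 138.9 and 120 in WT arrays. The means were 89.7 ± 15.6 in KO and 159.8 ± 53.4 in WT (SD, n = 3 each), a log2 difference of -0.70. The highest KO array and the lowest WT array were close, 1.15-fold apart. The order within the KO group was not that of Oxct1, since KO replicate 1 had the least Slc16a1 and the most Oxct1 of the KO arrays. Without WT replicate 1 the log2 difference was -0.47, and scaled to the hybridization controls Slc16a1 read 70.4, 101 and 90.3 in KO arrays and 119, 139 and 122 in WT arrays. Red blood cells and vessels also carry this transporter. The 4 measured erythroid markers, of 8 listed, summed to 41.9 to 59.8 in KO arrays and 49.5 to 87.4 in WT arrays, and the 8 endothelial markers to 481 to 837.4 in KO arrays and 484.8 to 629.1 in WT arrays. Among the erythroid markers Slc4a1 and Epb42 were below 16 on every array and Hba-a1 reached 16 on 1. Their sum thus rests on Alas2 and says little about red blood cells. The 8 fibroblast markers summed to 3781.4 to 8137.9 in KO arrays and 7828.7 to 13682.8 in WT arrays, with 7 lower in KO on average. The part of these cells in the Slc16a1 values was not tested. The other Slc16a1 probe set, 1446274_at, was below 16 on every array, at 1.1, 0.6 and 5.3 in KO arrays and 1.4, 0.9 and 1.6 in WT arrays, and gives no comparison.

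Bsg, the partner of the transporter, read nearly the same in both groups. Its probe set 1456616_a_at read 1300.8, 1300.3 and 1010.6 in KO arrays and 1413.5, 1237.6 and 1046.6 in WT arrays. The means were 1204 ± 167 in KO and 1233 ± 184 in WT (SD, n = 3 each), a log2 difference of -0.03, well inside the spread of either group. Its sign turned with the scaling, to 0.21 when arrays were scaled to the hybridization controls and 0.07 without WT replicate 1.

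Acat1, which acts on the product of Oxct1, overlapped between the groups at all 3 probe sets. At 1424183_at it read 477.3, 702.8 and 496.9 in KO arrays and 627.2, 588.1 and 405.7 in WT arrays, a log2 difference of 0.05. At 1451271_a_at it read 293.6, 382.9 and 283.6 in KO arrays and 403.3, 396.7 and 269 in WT arrays, a log2 difference of -0.14. At 1424182_at it read 178.4, 308.1 and 166.7 in KO arrays and 199, 154.4 and 145.5 in WT arrays, a log2 difference of 0.32. KO replicate 2 was the highest KO array at each of them, and at 1424183_at and 1424182_at the highest of all 6. The value at 1424182_at rested on that array, being 0.06 without it. Slow fibre markers, genes of oxidative type I fibres, followed the same array. Their summed intensity over 10 genes was 9045.2 in KO replicate 2, against 2895.1 and 4795.9 in the other KO arrays and 2641.3 to 5324.1 in WT arrays. Of these markers 8 were higher in KO on average, with a median log2 difference of 1.05 beside -0.01 over all probe sets, and of 0.56 without KO replicate 2. Limma called 0 of them, with 3 at an unadjusted p under 0.05. Troponin C gene Tnnc1 and tropomyosin gene Tpm3 had all KO arrays above all WT arrays, as 5.02% of all probe sets had, though 2 of the 5 Tpm3 probe sets went this way. Myosin gene Myh7 read 420.4, 1859.9 and 281.1 in KO arrays and 167.7, 313 and 87.2 in WT arrays, and myoglobin gene Mb, which weighs most in the sums, was lower in KO, at 2170.3, 1685.7 and 1144.3 in KO arrays and 3239.7, 2885.4 and 1716.2 in WT arrays. The part of fibre type in the Acat1 values was not tested. The direction of the Acat1 difference depended on the probe set, and also on the setting at 1424183_at, where quantile normalization gave -0.04. Without WT replicate 1 the log2 difference was 0.17 at 1424183_at, -0.04 at 1451271_a_at and 0.44 at 1424182_at. Scaled to the hybridization controls it was 0.29, 0.10 and 0.54 in the same order, so that all 3 then lay above 0.

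The dehydrogenases gave too little signal to compare. Bdh1 read 1.7, 3.6 and 1.3 in KO arrays and 1.8, 11.3 and 5.9 in WT arrays at 1452257_at. At 1426959_at it read 0.3, 0.2 and 4.7 in KO arrays and 1.4, 4.1 and 0.4 in WT arrays. Bdh2 read 5.7, 6.8 and 2.5 in KO arrays and 13.8, 3.3 and 8.6 in WT arrays at 1453011_at. These 3 probe sets were below the offset of 16 on all 6 arrays and their groups overlapped. The deposited table carries no detection call, so a low value shows neither presence nor absence of the transcript.

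**Figure D3:**
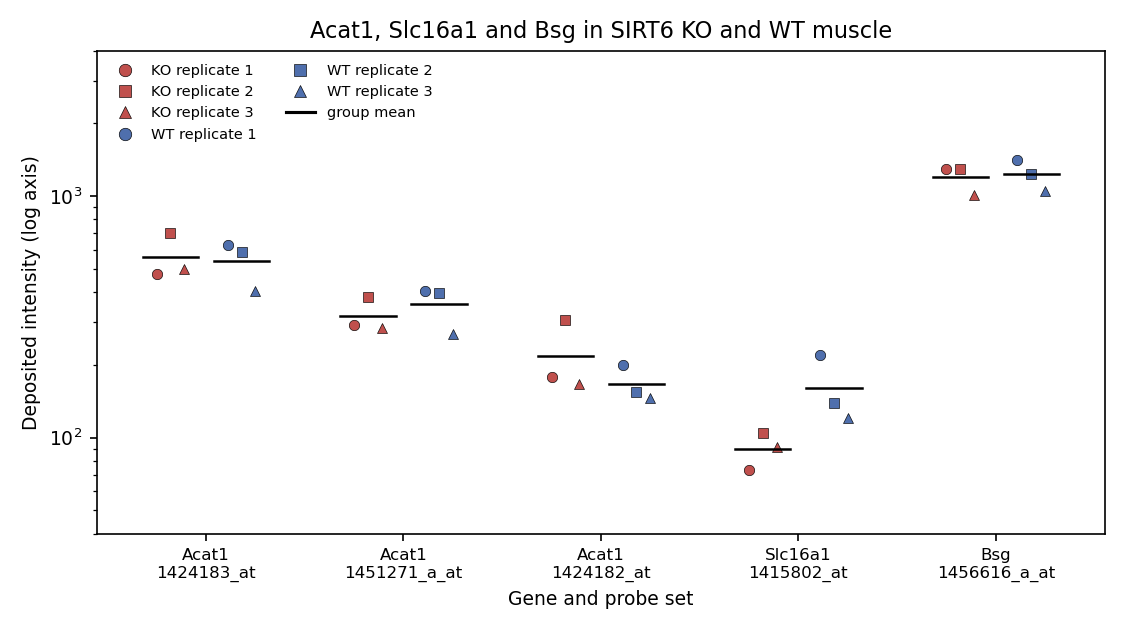
Deposited intensity (log axis) at the 5 further member probe sets above the array's median level, with 1 point per array, KO left and WT right, and the group mean as a black line. Slc16a1 is the one without overlap, at 73.4 to 104.4 in KO and 120 to 220.5 in WT, while the 3 Acat1 probe sets and Bsg overlap.

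Counted together, 5 of the 13 member probe sets had all 3 KO arrays below all 3 WT arrays, where 7.29% of all 45037 probe sets did. None had all KO arrays above all WT arrays, an arrangement found for 5.02% of all probe sets. Nothing is read from these counts, since 4 of the 5 are the Oxct1 probe sets that led to the choice of genes. The median log2 difference was -0.21 over the 13 member probe sets and -0.01 over all probe sets.

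Other genes of the pathway were taken from 8 lists of 64 genes, of which 54 were measured, each by its brightest probe set. None passed the limma test over all 45037 probe sets at an adjusted p of 0.05, where 0.00888% of all probe sets did, and their lowest adjusted p was 0.524. None passed with the fit restricted to the 22515 probe sets above the median level either, where 0.342% did. At an unadjusted p under 0.05 there were 6 lower and 2 higher in KO of the 54, where 4.99% of all probe sets were lower and 3.57% higher. The lower ones were Slc16a6, Nptn, Pcx, Ldhd, Me1 and Ldha, and the higher ones Acss1 and Hmgcll1. Of the 54 genes, 32 were lower and 22 higher in KO on average, with a median log2 difference of -0.04 beside -0.01 over all probe sets. The groups did not overlap for 7 lower and 3 higher genes, beside 7.29% and 5.02% of all probe sets. The shares over all probe sets include many dim ones, whereas each gene was read at its brightest, so the 2 are not fully alike.

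Of the other monocarboxylate transporters, 14 of 15 were measured, with 0 called, 8 lower and 6 higher on average and 5 below 16 on every array. Slc16a3, which encodes the lactate exporter MCT4 of fast fibres, read 898.1, 893.9 and 274.2 in KO arrays and 1079.5, 1106.3 and 656.7 in WT arrays (log2 difference -0.59, limma adjusted p = 0.779). The low value of KO replicate 3 carried this difference, which was -0.04 without that array. Slc16a7, which encodes MCT2, read between 0.4 and 0.6 in KO arrays and between 0.5 and 1.2 in WT arrays. Slc16a6 reached 16 on only 1 array of either group, reading 2.3, 2.3 and 1.3 in KO arrays and 19.6, 6.7 and 13.7 in WT arrays (limma adjusted p = 0.524). That is too little signal to compare. Slc16a11 read 26.5, 46.3 and 45.6 in KO arrays and 9.5, 33.6 and 28.1 in WT arrays, and Slc16a9, a carnitine transporter, 41.4, 59.2 and 35.5 in KO arrays and 45.7, 32 and 26.6 in WT arrays, both overlapping. Beside Slc16a1, these transporters gave no common direction.

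The relatives and partners of basigin had 3 of 4 genes measured, with 0 called and 3 lower on average. Neuroplastin, encoded by Nptn, read 230, 197.9 and 203.4 in KO arrays and 436.3, 295.5 and 264.1 in WT arrays (log2 difference -0.59, limma adjusted p = 0.560), with no overlap, but only 1 of its 2 probe sets went this way and the difference was -0.39 without WT replicate 1. Cyclophilin B, encoded by Ppib and able to bind basigin, read 176.5, 166.7 and 139.9 in KO arrays and 252.2, 191 and 171.5 in WT arrays. Embigin, encoded by Emb and an alternative partner of the transporters, read 2.2, 24 and 18.5 in KO arrays and 19.1, 15.4 and 10.8 in WT arrays.

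Enzymes on either side of Oxct1 that supply or use its substrates showed no shared direction. Succinyl-CoA, the donor of coenzyme A, is handled by succinyl-CoA synthetase, and its subunit genes Sucla2 and Suclg1 overlapped between the groups. Suclg1 read 885.4, 1152.3 and 766.9 in KO arrays and 1460.2, 1211.8 and 902.4 in WT arrays (limma adjusted p = 0.728), and Sucla2 averaged 1834 ± 385 in KO and 1636 ± 290 in WT (SD, n = 3 each). Aacs, which activates acetoacetate in the cytosol for lipid synthesis, read 5.9, 22.4 and 98.8 in KO arrays and 30.3, 21 and 19.2 in WT arrays, KO replicates 1 and 3 lying on opposite sides of the WT range. Acss1, the mitochondrial acetate-activating enzyme, lay the other way from Oxct1, at 114.9, 517.1 and 770.3 in KO arrays and 83.5, 92.6 and 43.2 in WT arrays (log2 difference 2.14, limma adjusted p = 0.529). Of its 3 probe sets 2 went this way, and the mean of all 3 gave 0.72. In this list of 11 genes 7 were measured and 0 were called.

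Thiolases and hydroxyacyl dehydrogenases of fatty acid oxidation, which act on substrates like those of Acat1, had 8 of 8 genes measured, 4 lower and 4 higher on average, with 0 called. All 8 overlapped between the groups, as most probe sets of the array did. The lowest p belonged to Hsd17b10, a hydroxyacyl dehydrogenase of isoleucine breakdown, at 182.7, 307.7 and 359.7 in KO arrays and 228.3, 205.8 and 181.7 in WT arrays (log2 difference 0.39, limma adjusted p = 0.706). Hadha, the alpha subunit of the trifunctional protein, read 620.3, 1077.7 and 802 in KO arrays and 707.4, 751.1 and 465.4 in WT arrays (log2 difference 0.36, limma adjusted p = 0.746). Hadh read 2366.7, 3010.5 and 2057.7 in KO arrays and 3306.1, 2860.2 and 1681.8 in WT arrays (limma adjusted p = 0.990). Acaa2 averaged 618 ± 133 in KO and 758 ± 186 in WT (SD, n = 3 each, limma adjusted p = 0.803). Of the ketone synthesis genes 1 of 3 was measured, Hmgcll1, a minor 3-hydroxy-3-methylglutaryl-CoA lyase, and it was below 16 on every array.

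Lactate and pyruvate genes, which share the transporter Slc16a1, had 7 of 8 measured members lower on average and 0 called. The groups did not overlap for 4 of the 8, all lower in KO, where 7.29% of all probe sets were. These were Pcx, Ldhd, Me1 and Ldha. Without the bright WT replicate 1, 5 of the 8 genes were lower on average, and the median log2 difference was -0.22, against -0.43 with it. Scaled to the hybridization controls, the log2 differences were -0.52 for Pcx, -0.26 for Ldhd, -0.42 for Me1 and -0.64 for Ldha. That scaling lowers WT replicate 1, whose controls stood at 1.85 times those of WT replicate 2, far more than the other arrays. WT replicate 1 then falls below KO replicate 3 at Pcx and Me1, and below KO replicate 1 at Ldha. The groups of Pcx, Me1 and Ldha thus overlap after scaling, and those of Ldhd stay apart. Pcx, the pyruvate carboxylase gene, read 62.4, 60.9 and 109.8 in KO arrays and 185.1, 110 and 124.3 in WT arrays (log2 difference -0.74, limma adjusted p = 0.562). Ldhd, the D-lactate dehydrogenase gene, read 49.9, 49.5 and 48.4 in KO arrays and 98.9, 68.8 and 58.5 in WT arrays, and its log2 difference of -0.46 was -0.28 without WT replicate 1. Me1, the cytosolic malic enzyme gene, read 457.2, 248.4 and 472.1 in KO arrays and 746.4, 543 and 550.8 in WT arrays, and its log2 difference of -0.66 was -0.37 without KO replicate 2. Ldha, the lactate dehydrogenase subunit of fast muscle, read 5244.5, 3875.4 and 1934 in KO arrays and 7849, 5891.5 and 5373 in WT arrays (log2 difference -0.88, limma adjusted p = 0.581). Without KO replicate 3 its log2 difference was -0.48. Ldhb, the subunit of oxidative muscle, read 676.4, 1040 and 655.3 in KO arrays and 725.7, 599.4 and 440.9 in WT arrays (limma adjusted p = 0.693). Receptors for ketone bodies and lactate gave little signal: 3 of 4 were measured, with 0 called, and Hcar1 and Hcar2 were below 16 on every array. Ffar2, a receptor of short-chain fatty acids, read 27, 50.2 and 21.4 in KO arrays and 36.4, 26.6 and 27.6 in WT arrays.

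Regulators of oxidative genes had 10 of 10 measured, 4 lower and 6 higher on average, with 0 called. The lowest p was that of Tfam, the mitochondrial transcription factor A gene, which read 118, 119.1 and 133.1 in KO arrays and 108.7, 97 and 67.2 in WT arrays (log2 difference 0.40, limma adjusted p = 0.595). All KO arrays were above all WT arrays, but 1 of its 2 probe sets went this way and the difference was 0.23 without WT replicate 3. Ppargc1b, a coactivator of mitochondrial genes, read 111.9, 107.6 and 23.7 in KO arrays and 177.7, 180.1 and 120.3 in WT arrays (log2 difference -1.01, limma adjusted p = 0.602). Without KO replicate 3 its log2 difference was -0.46. Ppard, a nuclear receptor for fatty acids, read 49, 71.4 and 53.3 in KO arrays and 52.8, 41.7 and 20.5 in WT arrays, and its relative Ppara 58.9, 76.4 and 52.7 in KO arrays and 98.7, 75 and 50.8 in WT arrays. Esrra, the oestrogen-related receptor alpha gene, read 107.2, 120.6 and 74.8 in KO arrays and 192.6, 130 and 106.6 in WT arrays, overlapping, and Ppargc1a averaged 79.9 ± 16.3 in KO and 70.1 ± 17.3 in WT (SD, n = 3 each, limma adjusted p = 0.875).

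**Figure D4:**
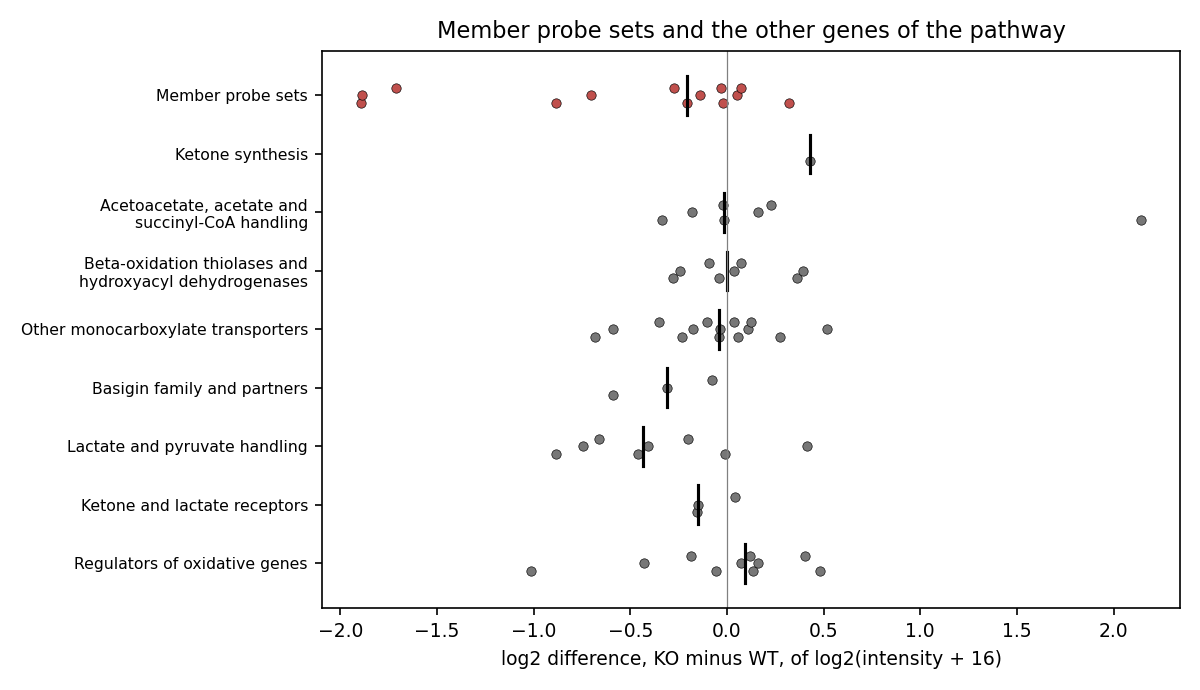
The log2 difference, KO minus WT, at the 13 member probe sets (red) and at the brightest probe set of each measured gene of the 8 pathway lists (grey), with the median of each row as a black line. The 3 brighter Oxct1 probe sets lie between -1.89 and -1.71, below every grey point, while Acss1 lies at 2.14.

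The genes whose profile over the 6 arrays was most like that of Oxct1 were looked for among 4335 probe sets of 3042 genes with a mean intensity of at least 100. The measure was Pearson's r with the mean of the 3 brighter Oxct1 probe sets, and it is given as a description, since 6 arrays in separated groups give high values readily. Gpd1, the cytosolic glycerol-3-phosphate dehydrogenase, was nearest, with r = 0.997. It read 429.5, 316.8 and 307.6 in KO arrays and 766.9, 635.9 and 589.9 in WT arrays. Prnp, the prion protein gene, followed with r = 0.995, then Kpna1, an importin alpha, with 0.993, Dynll1, a dynein light chain, with 0.991 and Memo1 with 0.991. All 5 were lower in every KO array, which follows from choosing them by so high an r with a profile of separated groups. Their log2 differences lay between -1.05 and -0.61, smaller than that of Oxct1. Their r lay between 0.955 and 0.998 over 8 alternatives. Of the other members Slc16a1 had r = 0.819 at 1415802_at, Bsg 0.355, and the Acat1 probe sets -0.42 to 0.36.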

How the data were processed

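The deposited values are linear intensities, 1 for each probe set on each array, written to 1 decimal. Per the labels' protocols, TriPure was used for extraction and biotin for labelling. How the authors summarized, scaled and background-corrected the intensities is not stated in the labels. Of 45101 probe sets, 64 controls were left out. Symbols came from the platform annotation: 34945 probe sets had 1 symbol, 932 several and 9160 none listed.

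Intensities were taken as log2(value + 16) without further normalization, so differences of dim probe sets are understated. limma 3.58.1 (lmFit, eBayes, two-sided) in R 4.3.3 was fitted to all probe sets with Benjamini-Hochberg adjustment at 0.05, and was tested on simulated data. Members and gene lists were chosen with earlier results of these data known. Named pathway genes were the 3 with the lowest p in each list, a fixed set, and the 5 most like Oxct1. Markers named beyond the 3 brightest of a list were picked after their values were seen. No source says more than biological replicate, and the number of arrays limits the precision. Alternatives were leaving out each array, quantile normalization, median centring, offsets of 1 and 64, a filter (mean intensity above that of the median probe set), the replicate block, a trended robust variance, a 0.01 threshold, the mean of all probe sets of a gene, the brightest Oxct1 probe set as reference profile and, added after seeing the data, scaling to the hybridization controls.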

Additional observations from a re-analysis of the deposited data

How the results depend on the processing

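Every Oxct1 probe set and Slc16a1 1415802_at stayed lower in KO under each of 14 alternatives, at -2.15 to -1.65 (log2) for Oxct1 1449059_a_at and -0.87 to -0.47 for Slc16a1. Among these alternatives the filter, the replicate block and the trended robust variance cannot change a log2 difference. Leaving out an array or changing the offset cannot turn its sign where all KO arrays lie below all WT arrays, as here. The direction could have turned only with quantile normalization, median centring or scaling to the hybridization controls, and it did not. The 5 member probe sets with all KO arrays below all WT arrays stayed at 5 or became 6. Leaving out an array cannot undo such a separation, and the filter does not change the values. Only quantile normalization, median centring and scaling to the hybridization controls could have lowered this count, and each left it at 5. The pathway genes called stayed at 0 under 15 alternatives.

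The 4 probe sets called over the array became 9 (3 higher, 6 lower) with quantile normalization, 11 with median centring, 77 with the filter, 15 with a trended and robust variance, 1 with an offset of 64, 2 at a threshold of 0.01 and 1 to 6 with each array left out. Of the 4, the 2 higher in KO were probe sets of Xist, a transcript that parts the sexes (limma adjusted p = 0.00068 and 0.0040). The same 2 were those left at the threshold of 0.01. The replicate block gave 0 calls by limma, with 3367 probe sets at an unadjusted p under 0.05. Deviations of same-numbered arrays correlated at -0.005, 0.020 and -0.039, and those of differently numbered arrays at -0.032 to 0.033. This gave no sign of pairing by number, but a correlation over many probe sets cannot show that none exists. The labels do not say whether same-numbered arrays belong together. The share of calls lower in KO was 50% of the 4, 66.7% with quantile normalization, 72.7% with median centring, 60% with scaling to the hybridization controls, 75.3% with the filter and 80% with the trended and robust variance.

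Small differences changed sign. With an array left out, the log2 difference ran from -0.14 to 0.060 for Bdh1 1426959_at, -0.14 to 0.17 for Acat1 1424183_at, -0.038 to 0.14 for Slc16a1 1446274_at, -0.14 to 0.087 for Bsg, -0.44 to 0.76 for Aacs, -0.33 to 0.16 for Hadh, -0.30 to 0.27 for Emb, -0.20 to 0.21 for Ffar2, -0.017 to 0.26 for Ppargc1a and -0.39 to 0.0015 for Ppara. Quantile normalization gave -0.038 for Acat1 1424183_at. Scaling to the hybridization controls gave 0.10 for Acat1 1451271_a_at, 0.21 for Bsg, 0.21 for Hadh, 0.043 for Emb and 0.020 for Ppara. The mean of all probe sets gave -0.13 for Aacs, -0.034 for Sucla2, 0.0095 for Hadh and -0.14 for Ffar2. The cause was not tested.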
